A study of Mus musculus with 8 samples.

Results

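Transcript clusters that name several genes were described in liver RNA from 8 male C57BL/6J mice. A transcript cluster is the unit of the Affymetrix Mouse Gene 2.0 ST array, a group of probes summarised into 1 log2 expression value per array. The clusters were chosen from the platform annotation alone: each lists at least 2 different gene symbols, and it was treated as 1 unit that carries all of its symbols. They number 1810 of the 41345 clusters in the table, beside 23525 clusters with a single gene and 16010 that the annotation used here does not list. The livers came from 3 wild-type (WT) mice and 5 mice carrying a knockout (KO) of Abhd15, a gene for an alpha/beta hydrolase domain protein, and each was hybridised to 1 array. Both groups ate normal chow, were 14 weeks old by the design text, were fasted overnight and were then refed for 1 hour before the livers were snap frozen. How Abhd15 was removed, and in which cells, is not stated in the labels. The animals are not listed one by one either, and a p-value here reflects the spread among the 8 samples, which may be technical.

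A cluster can name several genes for different reasons. Duplicated genes and their processed pseudogenes, which are copies of a spliced transcript put back into the genome, can be so alike that the same short probe matches them all. Genes that overlap or lie inside one another, such as a microRNA or a small nucleolar RNA (snoRNA) in the intron of its host gene, share the same stretch of transcript. In the liver the first kind includes the major urinary proteins, cytochrome P450 enzymes and glutathione transferases, families that grew by tandem duplication. A value from such a cluster reads the listed genes together, and it does not say which of them gave the signal.

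The sequences of a few members show both cases. The promoter stretches below hold the 250 bases before the start site as RefSeq gives it on GRCm38.p6, 5′ to 3′. Idi1 (chr13:8885356-8885605, + strand) is shown because its cluster had the smallest p of the members in the comparison of KO with WT; capitals mark CCAAT boxes, both on the opposite strand as ATTGG.
Idi1: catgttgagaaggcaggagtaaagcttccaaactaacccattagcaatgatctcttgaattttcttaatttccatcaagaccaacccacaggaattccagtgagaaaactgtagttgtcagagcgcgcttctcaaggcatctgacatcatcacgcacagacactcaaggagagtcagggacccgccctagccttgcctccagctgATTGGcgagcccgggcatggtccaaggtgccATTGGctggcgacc
The matches begin at -45 and -14 from the start site. CCAAT was found on either strand in 37.4% of 32851 RefSeq promoter windows of 300 bases (250 before and 50 after the start). The sterol element core TCACNCCAC was found in 1.24% of them, with no match in the Idi1 window. The heat shock element GAANNTTC, found in 7.86% of them, matched the Idi1 window at -194 and 38 and is not marked. Raet1e (its second start in the table, chr10:22173247-22173496, + strand) and Raet1d (chr10:22361644-22361893, + strand) are shown as a pair of gene copies; capitals mark the aligned bases at which they differ.
Raet1e: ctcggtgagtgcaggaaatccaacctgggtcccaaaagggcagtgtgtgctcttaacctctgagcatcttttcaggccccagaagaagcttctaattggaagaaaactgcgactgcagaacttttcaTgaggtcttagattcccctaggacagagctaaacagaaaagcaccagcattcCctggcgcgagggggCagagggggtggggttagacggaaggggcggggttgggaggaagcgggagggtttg
Raet1d: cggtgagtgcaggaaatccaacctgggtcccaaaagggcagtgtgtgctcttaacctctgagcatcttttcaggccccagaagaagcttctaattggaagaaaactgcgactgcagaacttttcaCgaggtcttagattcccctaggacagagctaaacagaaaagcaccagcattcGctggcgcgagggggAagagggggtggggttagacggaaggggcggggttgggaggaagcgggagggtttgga
The windows of 300 bases were 99.0% identical over 298 aligned columns and differed in 3 columns. Tmem254a (chr14:25927673-25927922, - strand) stands for a set of copies whose start regions cannot be told apart, and no base is marked.
Tmem254a: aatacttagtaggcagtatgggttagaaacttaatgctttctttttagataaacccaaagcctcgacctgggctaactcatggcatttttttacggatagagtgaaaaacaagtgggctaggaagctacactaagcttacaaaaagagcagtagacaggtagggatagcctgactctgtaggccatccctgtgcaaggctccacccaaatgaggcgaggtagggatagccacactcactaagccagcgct
Its window of 300 bases was identical to that of Tmem254c in each of 300 columns, and to that of Tmem254b in each of 284 aligned columns.

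The next sequences are mature microRNAs, short RNAs that guide the silencing of messenger RNAs through their seed, with bases 2 to 8 in capitals. Mir26a-2 and Mir546 lie within Ctdsp2 on chromosome 10 (miR-26a-5p at chr10:126995543-126995564, + strand; miR-546 at chr10:126998471-126998486, + strand), and are shown because their shared cluster was the microRNA member with the smallest p at a mean of 5 or more.
miR-26a-5p: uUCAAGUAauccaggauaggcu
miR-26a-2-3p: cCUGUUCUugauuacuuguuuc
miR-546: aUGGUGGCacggaguc
Mir24-1 and Mir3074-1 (miR-24-3p at chr13:63301251-63301272, + strand; miR-3074-5p at chr13:63301249-63301270, - strand) are shown because their clusters name a pair read from opposite strands of the same place.
miR-24-3p: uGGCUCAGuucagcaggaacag
miR-3074-5p: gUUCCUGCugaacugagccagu
Mir664, inside the snoRNA gene Snora36b, is shown because its dim cluster separated the groups (chr1:185243012-185243033, + strand for the 3p arm).
miR-664-5p: cUGGCUGGggaaaaugacugg
miR-664-3p: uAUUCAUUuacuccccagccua
None of these seeds is shared between the microRNAs shown, although each pair shares a cluster. Of the pair of clusters that name Mir24-1 and Mir3074-1, one read a mean log2 level of 3.46 with a KO minus WT difference of 0.34 (SE 0.308), and the other read 1.83 with 0.23 (SE 0.186), both with overlapping groups.

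Most members name few genes. Of the 1810 clusters, 1137 list 2 symbols, 240 list 3, 101 list 4 and 100 list 5, while 123 list 6 to 10 and 109 list 11 or more, up to 20. Together they hold 2722 distinct symbols, of which 925 also have a cluster of their own and 1797 appear only in company. Of the distinct gene identifiers they carry, looked up in RefSeq, protein-coding genes made up 73.1%, long non-coding RNAs 8.59%, microRNAs 5.25%, and pseudogenes 4.41% plus 3.01% transcribed ones.

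The genes of a cluster lie in different arrangements. In 563 members (31.1%) the genes overlap, in 209 (11.5%) they are direct neighbours, in 731 (40.4%) they share a chromosome with other genes between them, and in 184 (10.2%) they lie on different chromosomes, by the gene order in RefSeq. The remaining 123 have a symbol that was not located. The start regions of the named genes were compared as the closest pair of windows in each cluster name, leaving out windows that overlap. For names whose symbols share a root, such as Saa1 and Saa2, the median identity was 95.3% over 189 names, and 104 of them (55.0%) had a pair at 90% or more. For names counted as unrelated the median was 52.6% over 231 names, and 2.16% reached 90%. The rule for a root needs more than 1 letter. Histone and H2 histocompatibility copies, whose names share only the letter H, therefore count as unrelated.

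Copies differed in how far upstream their likeness ran. Saa1 and Saa2, the acute phase serum amyloid A genes, were 95.7% identical there, Cyp3a41a and Cyp3a41b 98.3%, Cyp2c67 and Cyp2c68 90.6%, and Gstp1 and Gstp2 80.4%. The alpha globin genes Hba-a1 and Hba-a2 were identical over 297 aligned columns. Acot8 and Snx21, which overlap without being copies, were 51.5% identical, near the median of unrelated names.

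**Figure D1:**
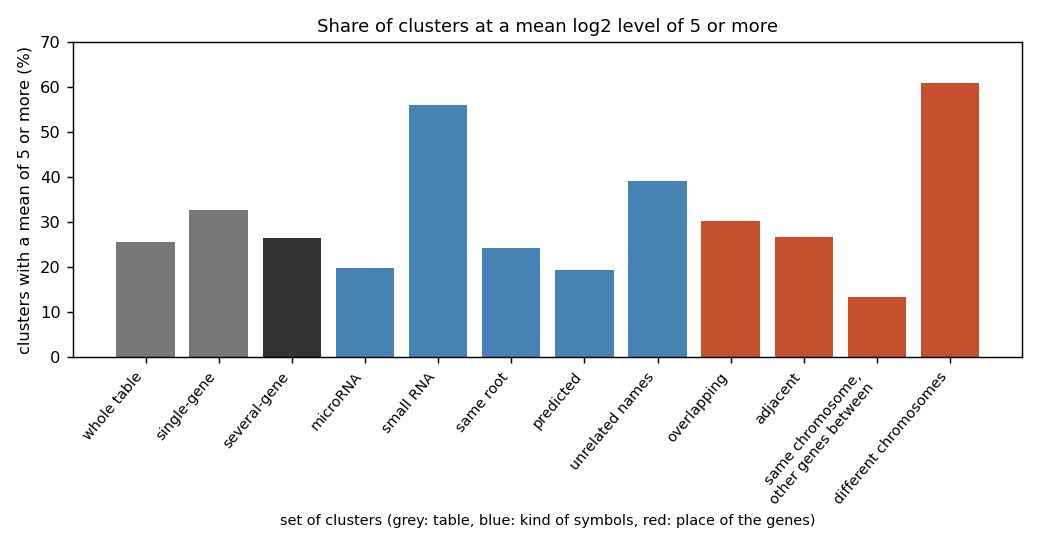
Percent of clusters (y axis) with a mean log2 level of 5 or more over the 8 arrays, in the table and its single-gene and several-gene clusters (grey), by the kind of symbols a several-gene cluster carries (blue) and by where its genes lie (red). Members whose genes lie on different chromosomes stand highest at 60.9%, and those on 1 chromosome with other genes between them lowest at 13.4%.

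The level of the members differed by arrangement. Over all members the median log2 level was 3.17, with 480 (26.5%) at a mean of 5 or more, beside a median of 3.32 and 32.7% for single-gene clusters. Members with genes on different chromosomes, 116 of which name a pseudogene, had a median of 6.19, and 60.9% reached a mean of 5. Those with genes spread along 1 chromosome had a median of 2.35, and 13.4% reached it. The 118 members of the Y chromosome, copies of Sly among them, had a median of 1.91 and none reached a mean of 5. Of 129 members on X, 8 did.

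The brightest members show what these shares mean. Trf/Srprb, naming transferrin, the iron carrier of plasma, and its neighbour, a subunit of the signal recognition particle receptor, read 12.60, 12.69 and 12.69 in WT and 12.77, 12.75, 12.73, 12.58 and 12.50 in KO. Gm12070/Gapdh, the glycolytic enzyme with a transcribed pseudogene on another chromosome, was present as 2 clusters with identical values and a mean of 12.29 (log2). COX2/Prf1 reached 12.10 and Ftl1/Ftl2-ps/Ftl1-ps2, the ferritin light chain with pseudogenes, 12.06. COX2 is the mitochondrial gene of a cytochrome c oxidase subunit, whereas Prf1 encodes perforin. Their KO minus WT differences lay between -0.08 and 0.01, and the groups overlapped in each.

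Repeated clusters were common. In 297 members (16.4%) the 8 values were identical to those of another member, against 0.536% of single-gene clusters that matched any other cluster. The repeats form 105 sets, of which 73 carry the same symbols throughout, and each set shares at least 1 symbol. Gm26504/Snord116l1/Snord116l2, from the imprinted snoRNA array of the Prader-Willi region, had 16 clusters with 1 set of values at a mean of 3.41. Mir669a-1/Mir669a-2/Mir669a-3 had 12, and the U1 small nuclear RNA genes Rnu1b1/Rnu1b2/Rnu1b6 had 9 at a mean of 6.15. The 1810 members thus hold 1618 distinct profiles, and a count over members can count 1 measurement several times.

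Across the whole table the arrays had medians between 2.99 and 3.05, with pairwise correlations over clusters from 0.962 to 0.971. KO arrays 1 and 2 stood apart on the first principal component (18% of the variance), with scores of 55.2 and 50.8 where no other array exceeded 0.22. Of the 8, KO array 4 was the lowest over bright clusters: at a mean of 5 or more, its median distance from the WT mean was -0.12 over the table and -0.11 over the members, and that of the other KO arrays lay between -0.04 and 0.02 in both. All 7 hepatocyte markers read a mean of 5 or more, with summed levels of 14.86 to 14.94 in WT and 14.76 to 14.99 in KO. Abhd15 has 2 clusters, neither a member: the one with a mean of 5.31 was lower in each KO array than in each WT array (log2 difference -0.52, SE 0.129), and in the dimmer one, at a mean of 3.42, the groups overlapped (-0.68, SE 0.346).

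No member passed the adjusted threshold. With limma and Benjamini-Hochberg adjustment over all 41345 clusters, 0 members had an adjusted p under 0.05, where 0.00726% of the table (3 unnamed clusters) did, and the smallest adjusted p among members was 0.352. The unadjusted p was under 0.05 in 83 members (4.59%), 33 higher and 50 lower in KO, against 5.6% of the table (2.46% higher and 3.14% lower). The groups shared no range in 89 members (4.92%), against 4.29% of the table. Of these, 34 had each KO array above each WT array (1.92% in the table) and 55 had each below (2.38%). At a mean of 5 or more, 22 of 480 members (4.58%) were at an unadjusted p under 0.05 against 5.14% of the table, and 33 (6.88%) did not overlap against 5.86%. These shares are near the background, so the differences below are descriptions of single clusters, and none was called. The median difference was 0.00 over members, with 915 higher and 895 lower in KO.

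**Figure D2:**
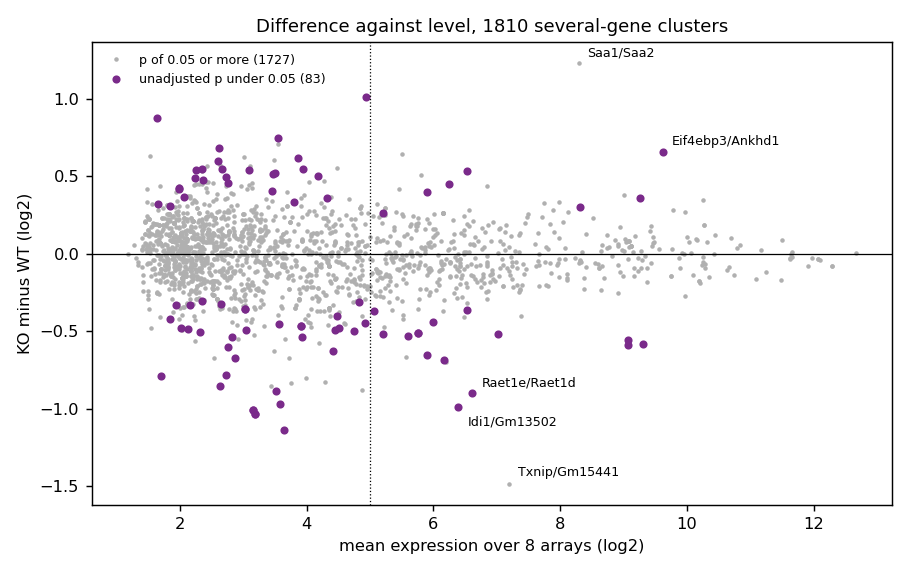
Mean log2 level over the 8 arrays (x axis) against the KO minus WT difference in log2 (y axis) for the 1810 several-gene clusters, with those at an unadjusted limma p under 0.05 in purple and a dotted line at a mean of 5. Idi1/Gm13502 and Raet1e/Raet1d lie lowest among the purple points right of that line, and the wider spread of Txnip/Gm15441 and Saa1/Saa2 leaves them grey.

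Among members at a mean of 5 or more, Idi1/Gm13502 had the smallest p. Idi1 encodes isopentenyl-diphosphate isomerase, an enzyme of the mevalonate route to cholesterol and other isoprenoids, and Gm13502 is a pseudogene on chromosome 2. The cluster read 6.67, 7.11 and 7.26 in WT and 6.14, 5.94, 6.06, 5.96 and 6.02 in KO. The highest KO value was below the lowest WT value, and the 5 KO values lay closer together than the 3 WT values. The log2 difference was -0.99 (SE 0.156), or 1.99-fold, with an exact permutation p of 0.0179 (the minimum over 56 splits) and a limma adjusted p of 0.352. Without KO arrays 1 and 2 it was -1.003.

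Raet1e/Raet1d followed. Both genes encode ligands of the RAE-1 family, which the activating receptor NKG2D of natural killer cells binds. Levels were 6.86, 7.32 and 7.35 in WT and 6.33, 5.78, 6.25, 6.52 and 6.50 in KO, with no overlap and KO array 2 the lowest. The difference was -0.90 (SE 0.205), or 1.87-fold, with a limma adjusted p of 0.816. It was -0.75 without KO arrays 1 and 2.

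Slc6a9/Ccdc24 names the glycine transporter GlyT1 and a coiled-coil protein gene that overlaps it. WT arrays read 6.35, 6.43 and 6.12, and KO arrays 5.49, 5.74, 5.45, 5.95 and 5.61, so the groups were apart. The difference was -0.65 (SE 0.157). A dim cluster of the same neighbourhood, Ccdc24/B4galt2 (mean 3.56), also had each KO array below each WT array, at -0.46 (SE 0.128).

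Tmem254a/Tmem254b/Tmem254c, copies of a transmembrane protein gene on chromosome 14, were read by 3 clusters with separate values. The first read 9.24, 9.49 and 9.61 in WT and 8.74, 8.75, 9.0, 8.68 and 9.10 in KO. The groups did not overlap in any of the 3, with differences of -0.59, -0.56 and -0.58. The clusters name the same genes and share samples, so they are not 3 independent observations.

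Further members lower in KO name an acyl-CoA thioesterase and a carnitine acyltransferase. Acot8/Snx21, a peroxisomal acyl-CoA thioesterase and a sorting nexin, read 7.49, 7.38 and 7.14 in WT and 6.86, 6.72, 6.67, 6.76 and 7.07 in KO, apart in each array. Its difference was -0.52 (SE 0.145), while the single-gene cluster of Snx21, at a mean of 4.13, differed by 0.21 in the other direction with its groups also apart. Gm44502/Cpt1b/Chkb names the muscle form of carnitine palmitoyltransferase 1, which brings long-chain fatty acids into mitochondria, and choline kinase beta. It differed by -0.69 (SE 0.245), but KO array 5 at 6.43 lay above WT arrays 2 and 3 at 6.38 and 6.28.

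Fam177a/Fam177a2/Srp54c was present as 2 clusters of identical values, with a difference of -0.51 (SE 0.16) and no overlap. The clusters Srp54a/Srp54b/Srp54c and Srp54b/Srp54a/Srp54c, naming copies of a signal recognition particle protein gene alone, had means of 9.27 and 9.36 and differed by -0.09 each, and a single-gene Srp54c cluster at a mean of 5.05 differed by -0.51 (SE 0.405) with overlap. Armc5/9130023H24Rik differed by -0.37 (SE 0.142) with no overlap, and another cluster of the same 2 symbols by -0.11 with overlap. Ccdc107/Rmrp read 5.65, 5.99 and 6.15 in WT and 5.68, 5.30, 5.15, 5.39 and 5.48 in KO, a difference of -0.53 with KO array 1 just above WT array 1. Rmrp is the RNA of the ribonuclease MRP. The brighter Rmrp/Ccdc107 cluster, at a mean of 11.17, differed by 0.02.

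**Figure D3:**
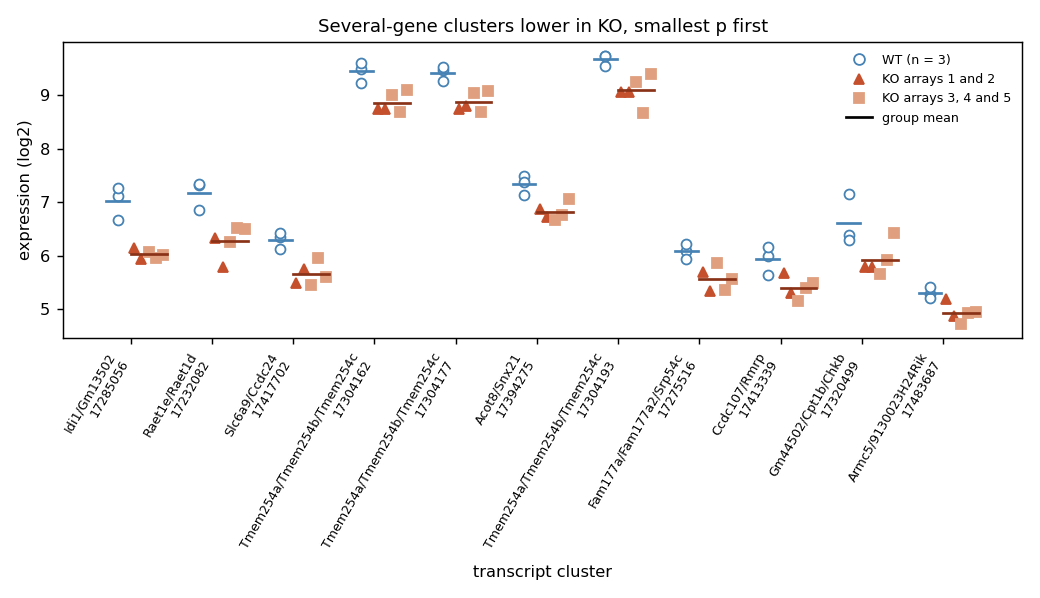
Log2 expression (y axis) in each array for the 11 distinct profiles of the 12 members at a mean of 5 or more with the smallest p that were lower in KO (x axis, symbols with cluster numbers): circles are the 3 WT arrays, triangles KO arrays 1 and 2, squares KO arrays 3, 4 and 5, and lines group means. In 10 of the 12 members the groups do not overlap, with Ccdc107/Rmrp and Gm44502/Cpt1b/Chkb the exceptions. Picking by small p favours groups apart, which 5.86% of the table at that level had. The 10 include 3 Tmem254 clusters and 2 identical Fam177a clusters.

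Of the 12 members named in the other direction, 5 had groups apart, a count that picking by small p also favours. The unadjusted limma p of the 12 ran from 0.015 to 0.095, so not all were under 0.05. Ctdsp2/Mir26a-2/Mir546 names a phosphatase of the small CTD phosphatase family and the microRNAs printed above. The cluster read 5.60, 5.70 and 5.67 in WT and 6.07, 6.20, 6.16, 6.05 and 5.79 in KO. Each KO array was above each WT array, with KO array 5 the closest. The difference was 0.40 (SE 0.133), or 1.32-fold, with a limma adjusted p of 0.872.

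Ptges3/Ptges3-ps, the p23 co-chaperone of Hsp90 and its pseudogene, read 6.42, 6.43 and 5.76 in WT and 6.55, 6.74, 6.71, 6.58 and 7.11 in KO. The groups were apart, and WT array 3 was the lowest of the 8. The difference was 0.53 (SE 0.201), whereas a second cluster of the same symbols, at a mean of 8.74, differed by 0.04 (SE 0.128).

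Per2/9830107B12Rik names the circadian clock repressor Per2 and a gene on chromosome 17 whose own cluster was dim (mean 1.80). It read 5.91, 5.87 and 6.09 in WT and 6.22, 6.02, 6.37, 6.62 and 6.82 in KO. KO array 2 lay within the WT range. The difference was 0.45 (SE 0.192), and 0.65 without KO arrays 1 and 2.

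Eif4ebp3/Ankhd1 names a repressor of cap-dependent translation (4E-BP3) and the ankyrin-repeat gene before it. The values were 9.71, 9.04 and 8.86 in WT and 9.38, 9.45, 10.21, 9.91 and 10.35 in KO. KO arrays 1 and 2 lay below WT array 1, and KO arrays 3, 4 and 5 above it. The difference was 0.66 (SE 0.284), and 0.95 without KO arrays 1 and 2, while 2 single-gene clusters of Ankhd1 differed by 0.02 and 0.26.

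Of the 12, 6 name a ribosomal protein gene, as do 45 of the 480 members at a mean of 5 or more. Rpl13a is on both Snord34/Rpl13a and Snord33/Mir5121/Rpl13a, so these are not 6 separate genes. Snord34/Rpl13a read 8.06, 8.27 and 8.06 in WT and 8.63, 8.33, 8.47, 8.39 and 8.33 in KO, apart, with a difference of 0.30 (SE 0.13). Snord15b/Rps3 was also apart, at 0.36 (SE 0.157), beside 0.14 for the single-gene Rps3 cluster. Rpl15/Gm10224 was apart at 0.26 (SE 0.112), beside 0.01 for the single-gene Rpl15 cluster, whose mean was 10.36 against 5.21 for the member. Snora52/Rplp2 (0.28), Snord33/Mir5121/Rpl13a (0.28) and Gm10420/Gm5978/Rps2 (0.33) overlapped, with unadjusted limma p-values of 0.061, 0.081 and 0.095. Gm7334/Btg3, an antiproliferative gene and a related pseudogene, differed by 0.64 (SE 0.288) with overlap and its mirror cluster Btg3/Gm7334 by 0.25.

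**Figure D4:**
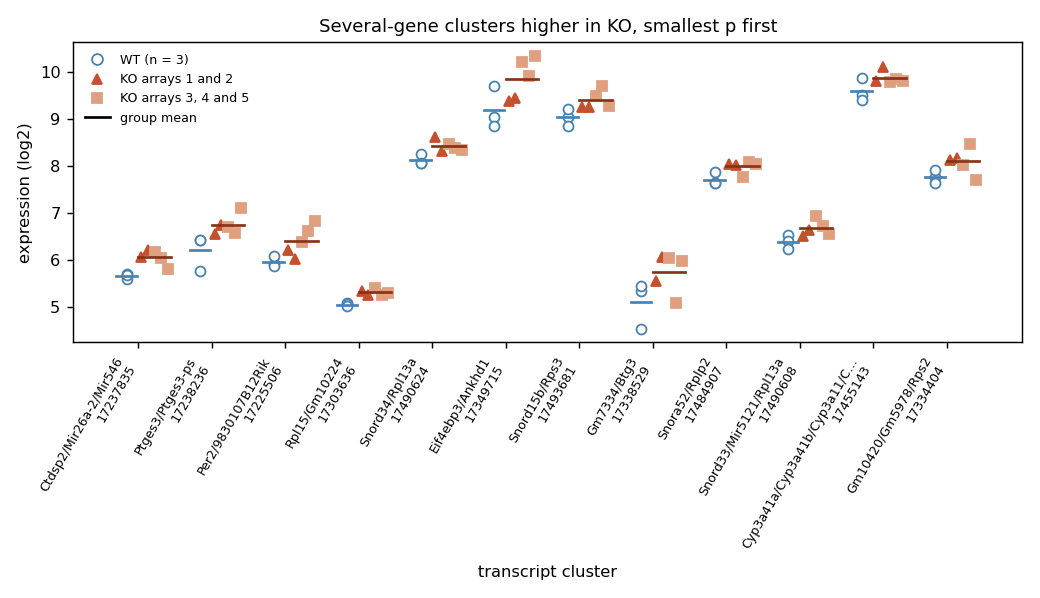
Log2 expression (y axis) in each array for the 12 members at a mean of 5 or more with the smallest p that were higher in KO (x axis, symbols with cluster numbers), with circles for the 3 WT arrays, triangles for KO arrays 1 and 2, squares for KO arrays 3, 4 and 5, and lines for group means. In Eif4ebp3/Ankhd1 and Per2/9830107B12Rik, KO arrays 1 and 2 lie below the other KO arrays.

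Reading 1 gene through several clusters gave unequal values in some cases. Rpl13a appears in 4 members, and the brightest, Snord32a/Rpl13a at a mean of 11.49, differed by 0.09, while Snord34/Rpl13a, Snord33/Mir5121/Rpl13a and the dim Flt3l/Rpl13a differed by 0.28 to 0.30. The brighter of the several-gene clusters was nearer 0 in Ptges3 and Rmrp too. In Armc5, Srp54c and Hba the brighter ones differed by -0.11, -0.09 and 0.35 and the dimmer ones by -0.37, -0.51 and 0.70. Btg3, Rps2 and Chkb went the other way, with 0.64, 0.33 and -0.69 in the brighter clusters and 0.25, 0.24 and -0.39 in the dimmer ones. Most of these genes were entered through a cluster picked for its small p, which favours a larger difference in that cluster. The single-gene Ptges3 cluster, at a mean of 3.91, differed by 0.10. In Tmem254 and Ccdc24 the clusters had the same sign and similar sizes. The differences between clusters of 1 gene were not tested.

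**Figure D5:**
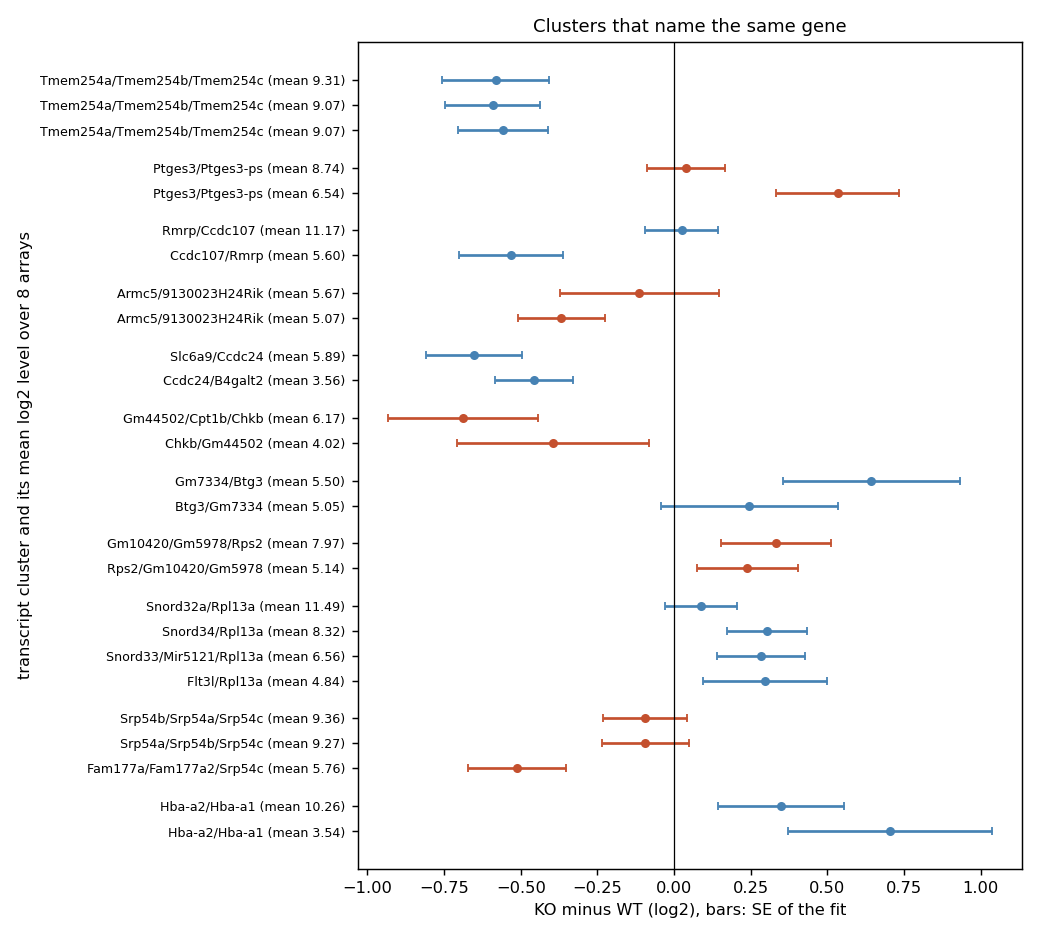
KO minus WT difference in log2 (x axis, bars are the standard error of the limma fit) for members that name the same gene (y axis, with the mean log2 level), grouped by gene in alternating colours and brightest first. The 3 Tmem254 clusters lie together near -0.6, while the brighter cluster of Ptges3 and of Rmrp lies at 0.04 and 0.02.

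Dim members, below a mean of 5, were described apart, since RMA values this low lie near the array's background. Lower in KO with groups apart were Slfn9/Slfn8 (-0.67), which name Schlafen genes, Mir486/Mir3107 (-0.62), Tdg-ps2/Tdg (-0.88), naming thymine DNA glycosylase, and Gal3st4/Gpc2 (-0.48). Ttc14/Ccdc39 (0.60), Snora36b/Mir664 (0.75) and Lilra6/Pira1/Pira2/Gm15448/Gm14548 (0.68) were higher with groups apart. Gsta1/Gm3776/Gsta2, alpha-class glutathione transferases, read 4.02, 5.05 and 3.86 in WT and 5.39, 5.68, 5.68, 4.85 and 4.99 in KO. WT array 2 lay above KO arrays 4 and 5, and the difference was 1.01 (SE 0.31). Other clusters of these genes gave other values: Gm3776/Gm10639/Gsta1/Gsta2, at a mean of 5.99, differed by 0.16 (SE 0.323), or by -0.28 without KO arrays 1 and 2, and Gsta2/Gsta1/Gm10639, at a mean of 2.19, by -0.32 (SE 0.247).

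A repeated predicted locus, named here after its values were seen, stood out in size. The symbol 4933409K07Rik is on 12 members with 9 distinct profiles and means between 3.16 and 4.29. In 9 of 9 profiles the KO mean was lower, by -0.35 to -1.04 with a median of -0.83. The profiles share this symbol and the samples, so they are not 9 independent observations. Of them, 3 were at an unadjusted p under 0.05 and 2 had groups apart, beside 5.6% and 4.29% of the table. The median over the 9 profiles was 4.80, 3.59 and 3.80 in the WT arrays and 3.22, 2.92, 2.80, 3.81 and 3.90 in the KO arrays. WT array 1 was the highest, and KO arrays 4 and 5 lay within the WT range.

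Small non-coding RNA genes formed a class of 57 members with 31 distinct profiles, mostly snoRNAs with their host genes. SnoRNAs guide the chemical modification of ribosomal RNA and are cut from introns, often of genes for ribosomal proteins. At a mean of 5 or more there were 21 distinct profiles, 18 higher and 3 lower in KO, with a median difference of 0.15, while the members as a whole at that level had 200 higher and 280 lower. Of the 21, 3 were at an unadjusted p under 0.05 (Snord34/Rpl13a and Snord15b/Rps3 higher, Ccdc107/Rmrp lower), and 0 passed the adjustment. In the table at that level, 5.14% were at an unadjusted p under 0.05. Single-gene clusters of the same list of small non-coding RNAs, which is not limited to snoRNAs, leaned the same way. At a mean of 5 or more, 51 of 62 were higher in KO, with a median of 0.20. Of these 62, 15 (24.2%) were at an unadjusted p under 0.05. Over the 87 clusters of the list the median was 0.15, and none passed the adjustment.

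By array, the medians of the class were uneven, but they rest largely on repeated clusters. Its median distance from the WT mean at a mean of 5 or more was -0.06 in KO array 1 and 0.28, 0.17, 0.11 and 0.22 in KO arrays 2 to 5, and the WT arrays themselves spread from -0.13 to 0.14. These medians count repeated clusters each time. Among the 32 clusters, Rnu1b1/Rnu1b2/Rnu1b6 enters 9 times and Rnu3b1/Rnu3b2/Rnu3b4/Rnu3b3 enters 4 times. Rnu1b1/Rnu1b2/Rnu1b6 read 5.92 in KO array 1 beside a WT mean of 5.98. The medians by array, their signs included, therefore do not describe the distinct profiles. Snhg8/Snora24 had groups apart at 0.15 (SE 0.114), with WT arrays at 6.32, 6.39 and 6.43 and KO arrays at 6.53, 6.50, 6.50, 6.49 and 6.66. Snord14e/Hspa8, the constitutive Hsc70 chaperone with a snoRNA in its intron, differed by 0.38 (SE 0.232) with overlap. Rnu3b1/Rnu3b2/Rnu3b4/Rnu3b3, the U3 RNA of ribosome assembly, was bright at a mean of 9.11 and differed by 0.05.

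MicroRNA members numbered 136, of which 92 also name a host or other gene and 44 name microRNAs alone. At a mean of 5 or more were 27 of the 92 and 0 of the 44. The 111 distinct profiles had 68 higher and 43 lower in KO, and the 27 bright ones 16 higher and 11 lower. Ddx5/Mir3064 (mean 9.29), Rpl37a/Mir682 (9.07) and Hipk3/Mir1902 (8.91) were among the brightest, and differed by -0.04, 0.08 and 0.05. Rpl37a lies on chromosome 1 and Mir682 on chromosome 13, so that this cluster is not a gene with a microRNA inside it. Syne2/Mir5101 was apart and lower in KO, with WT at 6.36, 6.34 and 6.34, KO at 6.15, 6.29, 6.08, 5.86 and 5.87, and a difference of -0.30 (SE 0.139). Vmp1/Mir21a differed by 0.13 and Cd74/Mir5107 by 0.05, both with overlap. Among the microRNA-only clusters with at least 2 known mature sequences, 6 of 13 shared a seed on every microRNA named.

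Families typical of the liver were counted where at least 2 symbols of a cluster belong to the family, which gave few members, and those at a mean of 5 or more had unadjusted p-values of 0.05 or above. Mup22/Mup19/Mup16/Mup9 and Mup10/Mup11/Mup22/Mup18, the major urinary proteins that male mice secrete, differed by -0.08 (SE 0.286) and -0.23 (SE 0.207). Within KO the first ran from 8.14 in array 1 to 9.51 in array 3. Cyp3a41a/Cyp3a41b/Cyp3a11/Cyp3a44, drug-metabolising P450 enzymes, read 9.51, 9.87 and 9.41 in WT and 9.81, 10.11, 9.80, 9.86 and 9.82 in KO, a difference of 0.28 (SE 0.15) with WT array 2 above most KO arrays. Its sister cluster Cyp3a41b/Cyp3a41a/Cyp3a11/Cyp3a44 differed by 0.27, and the single-gene Cyp3a11 cluster by 0.14. Of 8 single-gene Cyp3 clusters, 7 were higher in KO and 1 was at an unadjusted p under 0.05.

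The fatty acid hydroxylases of the Cyp4a group split. Cyp4a10/Cyp4a31 (mean 11.48) differed by -0.17 (SE 0.142), and Cyp4a32/Cyp4a10 by 0.33 (SE 0.225), the latter with KO arrays 3, 4 and 5 at 8.09, 8.21 and 8.14 above the WT range of 7.39 to 7.68 and KO arrays 1 and 2 at 7.58 and 7.33 within or below it. Cyp2c67/Cyp2c68 differed by -0.09 and Gstp1/Gstp2 by 0.10. Ugt1a1/Ugt1a6a/Ugt1a7c/Ugt1a6b/Ugt1a5, alternative first exons of 1 glucuronosyltransferase locus, differed by -0.14. Apoc4/Apoc2, apolipoproteins of which the second activates lipoprotein lipase, differed by -0.12 (SE 0.119). Gstz1/Pomt2, a glutathione transferase of tyrosine breakdown and its neighbour, had groups apart by a small step, with WT at 11.18, 11.17 and 11.22, KO at 11.12, 11.10, 11.05, 10.81 and 11.05, and a difference of -0.16 (SE 0.123).

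The widest differences among bright members lay in genes that varied within the groups. Txnip/Gm15441 names the thioredoxin-interacting protein, which responds to glucose, and a non-coding gene that overlaps it. It read 9.59, 7.22 and 7.56 in WT and 5.38, 5.52, 6.69, 6.75 and 8.86 in KO. KO arrays 1 and 2 were the lowest, KO array 5 lay within the WT range, and WT array 1 was the highest. The difference was -1.48 (SE 0.82), and -0.69 without KO arrays 1 and 2. Saa1/Saa2 read 8.14, 6.06 and 8.36 in WT and 10.19, 8.04, 9.58, 8.09 and 7.84 in KO, a difference of 1.23 (SE 0.688) with KO arrays 2, 4 and 5 inside the WT range. Both are named after their values were seen.

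Globin members were higher in the arrays that stood apart. Hba-a2/Hba-a1, the alpha chains of haemoglobin, read 10.06, 10.17 and 9.89 in WT and 10.77, 10.65, 10.44, 10.11 and 9.96 in KO. KO arrays 1, 2 and 3 lay above the WT range and KO arrays 4 and 5 within it. The difference was 0.35 (SE 0.206), and 0.13 without KO arrays 1 and 2. Over the 5 globin members the median distance from the WT mean was 0.73 and 0.80 in KO arrays 1 and 2, and 0.40, 0.08 and -0.15 in KO arrays 3 to 5. In a whole tissue, more cells of a type and more RNA per cell cannot be told apart. Of the other erythroid markers listed, Slc4a1 was measured by a single-gene cluster, at 2.49 to 3.01 in WT and 2.81 to 3.26 in KO, and its part was not tested.

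Immune members also varied by array. The 7 members naming interferon-inducible genes had medians of 0.62, 0.00 and 0.64 in KO arrays 1, 2 and 3. In KO arrays 4 and 5 the medians were -0.01 and -0.12. All 7 had a higher mean in KO, but only 2 of them read a mean of 5 or more, so most were dim. Single-gene interferon clusters at a mean of 5 or more leaned the other way, with 6 higher and 18 lower and a median of -0.07. Ifi211/Ifi204, genes of the PYHIN family, read 5.52, 4.93 and 6.01 in WT and 6.92, 6.28, 6.68, 5.28 and 4.81 in KO, a difference of 0.51 (SE 0.493) that was 0.10 without KO arrays 1 and 2. The summed level of 7 macrophage markers, of which 6 read a mean of 5 or more, ran from 8.97 to 9.44 in WT and from 8.97 to 10.001 in KO, and its part in this was not tested. H2-Q7/H2-Q9/H2-Q8 and H2-T22/H2-T9, non-classical class I histocompatibility genes, differed by 0.00 in the brighter H2-Q cluster (mean 10.06) and by 0.24 (SE 0.166). A dimmer cluster of the same H2-Q symbols, at a mean of 6.02, differed by 0.26 (SE 0.281), and H2-Q6/H2-Q8 by 0.20 (SE 0.28). Without KO arrays 1 and 2 each of these differed by 0.51. All 6 histocompatibility members had a higher mean in KO, and 0 were at an unadjusted p under 0.05. The immunoglobulin members Igkv9-124/Igkv4-70 and Igkv4-53/Igkj1/Igkv6-23 differed by -0.11 and -0.04, each with ranges over 1 log2 unit wide in KO, and 0 of the 4 measured B cell markers read a mean of 5.

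Histone genes, which sit in clustered copies and are made in dividing cells, gave 55 members with 50 distinct profiles. At a mean of 5 or more there were 13 members with repeats counted each time, of which 11 were lower in KO. Their median difference was -0.18, and 0 of the 13 had an unadjusted p under 0.05. Of the lower ones, H3f3b/Gm12657/Gm6749/H3f3c/H3f3a was level between the groups (-0.00). H2ac18/H2ac19/H2ac20 was present as 2 identical clusters with a mean of 10.19 and a difference of -0.18 (SE 0.175). The cluster of H2ac23 and 11 others was also present as 2 identical clusters, at -0.21 (SE 0.171). H2bc13/H2bc15/H2bc11/H2bc7 differed by -0.25 (SE 0.153) and H1f4/H2bc6/H2bc8/H2bc4 by -0.47 (SE 0.299), or -0.10 without KO arrays 1 and 2. The median distance from the WT mean over these 13 was -0.33 and -0.34 in KO arrays 1 and 2, -0.18 and -0.19 in KO arrays 3 and 4, and 0.24 in KO array 5. The 6 single-gene histone clusters at that level were all lower in KO.

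Members that name a pseudogene numbered 338, with a median level of 3.46 and 34.9% at a mean of 5 or more. Among genes of protein synthesis, 72 members name at least 1 ribosomal protein gene. Of the 45 at a mean of 5 or more, 30 were higher and 15 lower in KO, with a median of 0.07. At an unadjusted p under 0.05 were 4 of them (8.89%), beside 5.14% of the table at that level. Of these, 3 were higher in KO (Snord34/Rpl13a, Snord15b/Rps3 and Rpl15/Gm10224), and the other was lower. Snord34/Rpl13a and Snord15b/Rps3 also belong to the small RNA class above, so the counts of that class and of these members overlap. Single-gene ribosomal protein clusters at that level did not lean that way, with 59 higher and 75 lower and a median of -0.02. Of these 134, 1 was at an unadjusted p under 0.05. Where at least 2 of the symbols are ribosomal protein genes or their pseudogenes, which leaves out the 6 members named above with a single such symbol, there were 18 members, 10 at that level, with 7 higher and 3 lower. Rps16/Rps16-ps2/LOC100862433 differed by 0.15 (SE 0.127), Rps27/Rps27rt by 0.12 and Rpl34/Rpl34-ps1 by 0.05. All 4 respiratory chain members were lower in KO with a median of -0.11, and Ndufs5-ps/Ndufs5, a complex I subunit and its pseudogene, had the widest step at -0.41 (SE 0.203). In KO array 4 the median of these 4 was -0.38, and in the other KO arrays -0.03 to -0.10, beside the lower level of bright clusters in that array. Of 86 single-gene respiratory chain clusters at a mean of 5 or more, 65 were lower. Dnajc19/Dnajc19-ps, an import motor subunit of mitochondria, differed by -0.23 (SE 0.174).

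The zinc finger members at a mean of 5 or more are mostly runs of Zfp967, Zfp966, Zfp970 and Zfp971 copies on chromosome 2. Of 12, 10 were higher and 2 lower with a median of 0.04, and Zbtb26/Zbtb6 differed by 0.20 (SE 0.181). Single-gene zinc finger clusters at that level leaned the other way, with 49 higher and 89 lower and a median of -0.05. Chemokine members, which name Ccl27 copies among other genes, numbered 18, with 4 at a mean of 5 or more at differences between -0.16 and 0.15. No groups were apart in either family at that level.

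Grouped by kind of name, the members leaned in different directions at a mean of 5 or more. Unrelated names, mostly overlapping or neighbouring genes, had 52 higher and 117 lower with a median of -0.08. The table at that level had 4304 higher and 6324 lower with a median of -0.04. The class also holds gene copies, the H2 genes and most histone members, and 11 of the 13 histone members at that level were lower. Names with a common root had 46 higher and 60 lower (median -0.03), and those with predicted genes 57 higher and 89 lower (median -0.03). In unrelated names the median by KO array was -0.07, -0.04, -0.04, -0.17 and -0.01, with KO array 4 the lowest as over the table. The share at an unadjusted p under 0.05 by place was 4.8% for overlapping genes, 5.74% for neighbours, 4.38% for genes spread along a chromosome and 4.89% for different chromosomes, near the 5.6% of the table.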

How the data were processed

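The deposited table holds expression values on the log2 scale for 41345 clusters and 8 arrays, deposited by the authors. The submitters' processing notes name RMA and the oligo package, and the design text also names Expression Console, so which of them made the values is not settled. No version, setting, filter, slide or scan date was found in the labels, and the log2 scale was read from the range of the values, 0.409 to 13.27. RMA commonly equalises distributions between arrays and compresses dim differences. Per the labels' protocols, 200 ng of Trizol RNA was labelled with biotin. The number of arrays limits the precision.

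Groups and replicate numbers came from the sample titles. Clusters were named from the platform annotation, and RefSeq (GRCm38.p6) gave gene order and biotypes for 6244 of 6384 gene identifiers, and sequences. KO minus WT was fitted with limma 3.58.1 in R 4.3.3 (lmFit, eBayes without trend or covariates, two-sided, 6 residual degrees of freedom), with Benjamini-Hochberg adjustment over the whole table. Other steps used Python 3.11.15 and Biopython 1.88. Tested on simulated data of 41345 clusters, the fit called 1.2% of log2 changes of 0.5, 38.8% of 1 and 90% of 2. Same-numbered WT and KO arrays did not deviate together (correlations -0.03, -0.00 and 0.01), so numbers were not used as pairs.

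Named were the 12 members with the smallest p in each direction at a mean of 5 or more, 4 dimmer ones in each direction, up to 2 by level and 2 by p in each family, the 5 brightest, the smallest p in each class and the single-gene clusters of the same symbols. Saa1/Saa2, Txnip/Gm15441, Hba-a2/Hba-a1, Snord14e/Hspa8, Gstz1/Pomt2, Apoc4/Apoc2, Cyp2c67/Cyp2c68, Mir24-1/Mir3074-1 and the further microRNA, snoRNA and predicted clusters were added after their values were seen. Members and lists were chosen with earlier results of these data known. Alternatives were other normalizations, filters, eBayes settings, a replicate block, identical clusters counted once and fits without single arrays or KO arrays 1 and 2.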

Additional observations from a re-analysis of the deposited data

Results flagged for a closer look

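Among 86 groups of 5 KO arrays checked, 5 held an array far from the others of its group, and chance gives about 1 in 20. In Snora52/Rplp2, KO array 3 was lowest at 7.774, with the next at 8.011. KO array 2 was highest in both Cyp3a clusters, at 10.109 in Cyp3a41a/Cyp3a41b/Cyp3a11/Cyp3a44 against 9.857 for the next, and at 10.299 in Cyp3a41b/Cyp3a41a/Cyp3a11/Cyp3a44 against 10.044. In Gstz1/Pomt2, KO array 4 was lowest at 10.814, with the next at 11.049. For Ugt1a10 and 7 others, KO array 4 was highest at 6.803, with the next at 6.627.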

How the results depend on the processing

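The count of members past the adjusted threshold was 0 under every alternative fitted, and 32 named clusters kept their direction and stayed above an adjusted p of 0.05 in 500 fits, with a lowest value of 0.173. The 83 members at an unadjusted p under 0.05 became 80 after quantile normalization, 84 with each array centred on its median, 71 with trend and robust settings, 104 when only named clusters were fitted, 87 without KO arrays 1 and 2, and 66 to 104 without single arrays. With the replicate block the count was 86. Fitting only the clusters at a mean of 5 or more gave 31 (6.46% of 480, where the table gave 7.72%), although 22 of the same 480 members were under 0.05 in the fit of the whole table. Fitting only those above the median level gave 54. The 89 members whose groups did not overlap became 33 and 53 under those filters, and, since fewer arrays overlap less, 225 without KO arrays 1 and 2 and 119 to 199 without single arrays. Counting identical clusters once, an alternative chosen after seeing the data, gave 77 and 83. Background correction could not be varied, and dim clusters limit what the members can show.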
